A study of Mus musculus with 2 samples.

Results

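Deaf1, the splicing regulators Srsf10 and Ptbp2, the Ptbp2 paralogs Ptbp1 and Ptbp3, and Aire were followed in the pancreatic lymph node of diabetic mice. Members were the gene probes that carry 1 of these 6 gene names or an older form of it (Fusip1 for Srsf10, Rod1 for Ptbp3), and every probe was kept apart. The 6 genes, of 27845 gene names on the array, had 14 probes of the 41174 gene probes: 4 for Srsf10, 3 for Deaf1, 3 for Ptbp2, 2 for Ptbp1, and 1 each for Ptbp3 and Aire. RNA came from whole pancreatic lymph nodes of female mice aged 16 weeks of the NOD strain, which develops autoimmune diabetes; the labels name no engineered allele. Each of 2 Agilent mouse arrays held RNA of 1 hyperglycemic mouse (blood glucose above 500 mg/dl) in the Cy5 channel. The Cy3 channel of both arrays held 1 pool of RNA from 2 euglycemic mice (below 200 mg/dl). The replicates are therefore 2 hyperglycemic mice, and how much control mice vary was not measured. The dyes were not swapped, so dye and group cannot be told apart.

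Deaf1 is a transcription factor whose SAND domain binds DNA at TTCG elements, and in stromal cells of the lymph node it drives genes of peripheral tissues, so that T cells meet those antigens outside their home organ. Aire does the corresponding work in medullary epithelial cells of the thymus. Deaf1 RNA is alternatively spliced, and a variant form that does not enter the nucleus has been described in pancreatic lymph nodes of NOD mice. Srsf10 is an SR-like protein that represses splicing once dephosphorylated, and Ptbp2 is the polypyrimidine tract binding protein best known from neurons; both have been described as acting on Deaf1 splicing. Ptbp1 is the widely expressed member of that family and Ptbp3 the one first described in blood cells. The comparison asks whether these RNAs differ between the hyperglycemic mice and the euglycemic pool.

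The probe sequences were not used here, so the promoters of the genes are shown in place of probes. Each line gives the 250 bases before an annotated start from RefSeq (build GRCm38.p6), written 5′ to 3′ on the gene's strand, with every TTCG, or CGAA for the opposite strand, in capitals. The 2 windows of Deaf1 are shown because TTCG is the core of Deaf1's own binding element, and those of Srsf10 and Ptbp2 because their probes had the highest ratios among the members.
Deaf1, chr7:141338784-141339033, minus strand: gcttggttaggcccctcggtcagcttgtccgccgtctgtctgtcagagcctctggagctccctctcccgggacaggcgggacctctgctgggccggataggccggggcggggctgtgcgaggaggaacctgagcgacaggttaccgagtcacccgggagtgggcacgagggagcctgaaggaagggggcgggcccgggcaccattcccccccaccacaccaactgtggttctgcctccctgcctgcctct
Deaf1, chr7:141327726-141327975, minus strand: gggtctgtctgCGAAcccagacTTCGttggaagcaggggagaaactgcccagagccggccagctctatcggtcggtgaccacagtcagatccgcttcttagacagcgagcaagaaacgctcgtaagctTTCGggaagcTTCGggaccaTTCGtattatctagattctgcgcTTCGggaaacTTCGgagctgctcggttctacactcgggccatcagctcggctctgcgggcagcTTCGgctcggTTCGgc
Srsf10, chr4:135855821-135856070, plus strand: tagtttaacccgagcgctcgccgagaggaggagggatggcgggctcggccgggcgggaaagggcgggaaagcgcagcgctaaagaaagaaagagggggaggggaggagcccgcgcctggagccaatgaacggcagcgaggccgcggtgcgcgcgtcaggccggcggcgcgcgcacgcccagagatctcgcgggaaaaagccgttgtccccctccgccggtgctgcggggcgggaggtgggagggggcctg
Ptbp2, chr3:119783389-119783638, minus strand: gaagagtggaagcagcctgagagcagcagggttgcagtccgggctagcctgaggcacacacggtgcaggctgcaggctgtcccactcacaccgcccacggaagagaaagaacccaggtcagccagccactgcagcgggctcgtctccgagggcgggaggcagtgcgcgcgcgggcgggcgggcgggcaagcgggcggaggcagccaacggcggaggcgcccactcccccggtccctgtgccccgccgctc

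The first Deaf1 window held 0 matches to TTCG on either strand, and the second, before a start further 3′, held 9, of which 8 were on the gene's strand. Of 32851 RefSeq promoter windows of the same length, 38.7% held at least 1 match, and this Deaf1 window alone (0.00304%) held as many as 9. The windows of Srsf10 and Ptbp2 held 0 matches. Those of Ptbp1 and Aire held 2 each, and 12.5% of all windows held as many or more. Both strands were searched, and overlapping matches (TTCGAA) were each counted. A match is a run of letters and not a bound site. No window of Ptbp3 was matched.

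The array signals set what can be said of each probe. The median Cy5 spot signal was 37.7 and 38.2 on arrays 1 and 2, over a local background of 35 on both, whereas the Cy3 median was 234 and 81.2 over 31 and 31.5. The 95th percentile of 153 negative control spots was 39.1 and 39.6 in Cy5. In Cy3 it was 804 on array 1 and 50.1 on array 2. Gene spots called well above background by the scanning software made up 14.5% and 16.4% in Cy5, and 21.7% and 63.0% in Cy3. The deposited table holds log2 ratios for 5072 gene probes. On each array all of them passed that call in Cy5 and in Cy3.

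Of the 14 member probes, 9 lay above the 95th percentile of the negative controls in Cy5 on both arrays. Only 5 passed the well-above-background call in both dyes on both arrays, and these are the 5 member probes in the deposited table: 1 each for Deaf1, Srsf10, Ptbp2, Ptbp1 and Ptbp3. The other 9 probes, Aire among them, are read from the scanner files alone. For 7 of the 14 the processed signal was a surrogate, a floor value that the software puts in place of a signal near background, in at least 1 channel on at least 1 array. Ratios that rest on a surrogate are bounds and not measurements.

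**Figure D1:**
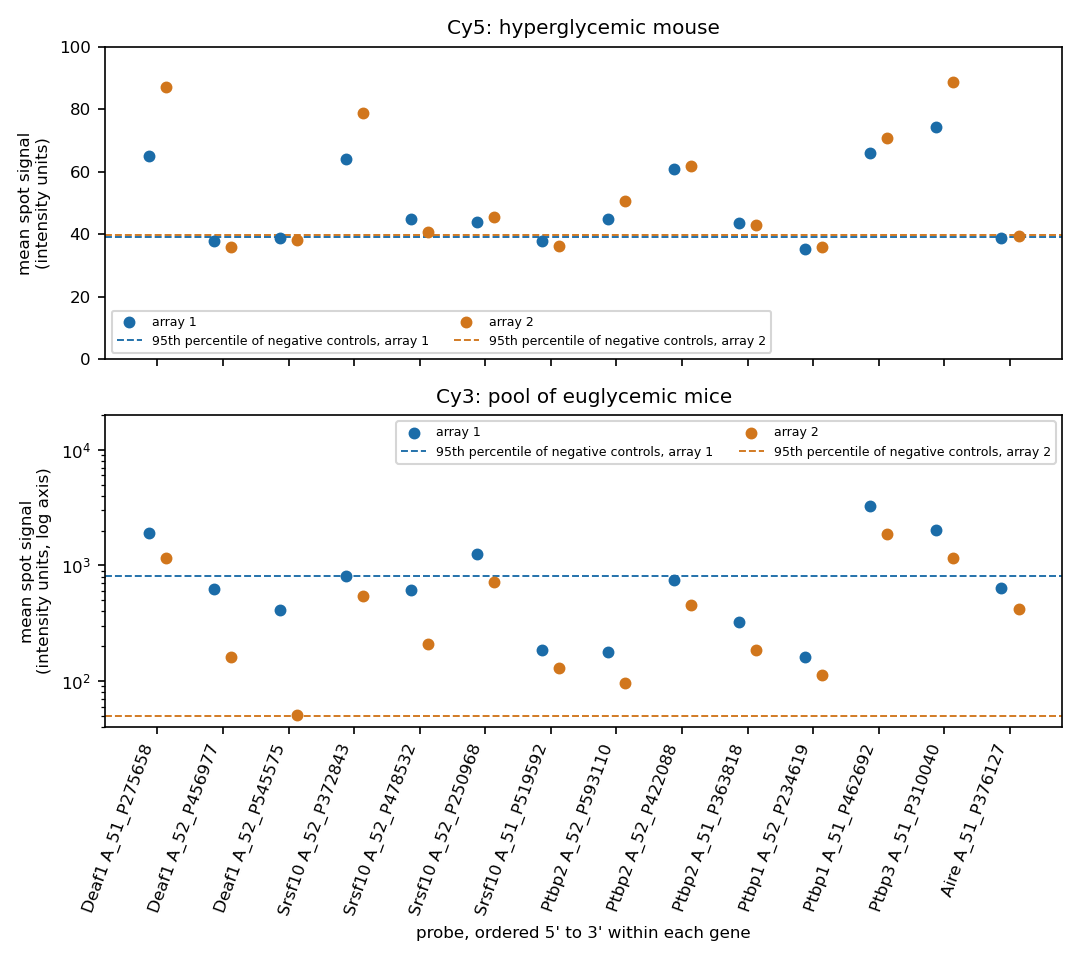
Mean spot signal of the 14 member probes on each array, in Cy5 (hyperglycemic mouse, linear axis) and Cy3 (pool, log axis), with the 95th percentile of the 153 negative control spots as dashed lines. In Cy5 the members lie between 35.2 and 88.6 around control levels of 39.1 and 39.6, and in Cy3 most members of array 1 lie below the control level of 804.

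Ratios are log2 of Cy5 over Cy3, so a positive value is a higher signal in the hyperglycemic mouse than in the pool. They were taken from 3 sources, each named where used. Processed ratios are those of the software's background-subtracted and dye-normalized signals, and the deposited ratios are the same values for the probes in the deposited table. The scanner-signal fit starts again from spot and background signals, with an offset of 50 that shrinks the ratios of dim probes, and tests 8828 probes. In both fits limma tested the mean of both arrays against 0, and a probe is called at a Benjamini-Hochberg adjusted p under 0.05.

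Deaf1 was measured in the hyperglycemic mice at its most 5′ probe, which was called higher in the deposited ratios and not in the scanner-signal fit; its other probes were not well above background in Cy5. The 5′ probe, A_51_P275658, maps to chromosome 7, 141166259 to 141172439 (build mm8, minus strand), a span of 6181 bases that is far longer than a probe, so it does not lie in 1 unbroken stretch of the genome. Its spot signal in Cy5 was 65.0 and 87.0 on arrays 1 and 2, against 1919 and 1161 in Cy3. After processing the Cy5 signal was 1435 and 2939 and the Cy3 signal 796 and 1344. The raw Cy3 signal was thus the higher one and the processed Cy5 signal the higher one on both arrays. The deposited log2 ratios were 0.85 and 1.13, a mean of 0.99 ± 0.20 (SD, n = 2; 95% interval 0.61 to 1.37), or 1.99-fold higher (limma adjusted p = 0.00350). Higher calls made up 25.1% of the 5072 probes of that fit, and Deaf1 lay at percentile 91.7 of all their ratios. In the scanner-signal fit the same probe read 0.14 and 0.58, a mean of 0.36 ± 0.31 (interval 0.02 to 0.70), and was not called (limma adjusted p = 0.239).

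The other Deaf1 probes start 19453 bases or more 3′ of its start and were dim in the hyperglycemic mice. A_52_P456977 (chromosome 7, 141152927 to 141152986) had Cy5 signals of 37.7 and 35.8, below the 95th percentile of the negative controls on both arrays. Its processed ratios were -0.80 and -1.38, with a surrogate in Cy5 on both arrays, and its Cy3 signal was well above background on array 2 alone. A_52_P545575 (141151821 to 141151880), which the file ties to a GenBank cDNA and not to the RefSeq mRNA of the other probes, had surrogates in both channels on both arrays and a listed ratio of 0. Neither probe therefore has a measured level in the hyperglycemic mice to set against the 5′ probe. Exon and intron annotation of build mm8 was not used here, so the probes are not assigned to transcript forms.

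Srsf10 has 4 probes, of which 1 is in the deposited ratios and was called higher there. This most 5′ probe, A_52_P372843 (chromosome 4, 135130946 to 135131005, plus strand), was well above background in both mice, with Cy5 signals of 64.1 and 78.9 against Cy3 signals of 810 and 539. The Cy3 signal of array 1 was barely above the negative control level of 804 on that array. Processed signals were 1345 and 2332 in Cy5 and 289 and 535 in Cy3. The deposited ratios were 2.22 and 2.12, a mean of 2.17 ± 0.07 (SD, n = 2; interval 1.81 to 2.53), or 4.51-fold higher (limma adjusted p = 4.73e-04). The arrays lay within 0.10 of each other here, at percentile 99.5 of all deposited ratios. The same probe read 0.28 and 0.92 in the scanner-signal fit, a mean of 0.60 ± 0.45 (interval 0.17 to 1.04), and was not called (limma adjusted p = 0.151).

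The 3 other Srsf10 probes, all further 3′, did not have positive processed ratios on both arrays, and 2 of them were not well above background in Cy5 on either array. A_52_P250968 (135139221 to 135139280) had Cy3 signals of 1259 and 718, well above background on both arrays. Its Cy5 signals of 44.1 and 45.5 were above the 95th percentile of the negative controls, but well above background on array 2 alone. Its processed ratios were -0.17 and -0.35, and its scanner-signal mean was -0.07 ± 0.20 (interval -0.36 to 0.21, limma adjusted p = 0.764). A_52_P478532 (135137147 to 135137206) gave 2.46 on array 1, where the Cy3 value was a surrogate, and -0.75 on array 2. The most 3′ probe, A_51_P519592 (135141472 to 135141531), had surrogates in both channels of array 1 and a ratio of -1.20 on array 2, with Cy5 signals of 37.7 and 36.2 at control level. The 5′ probe is tied in the file to a GenBank cDNA, and the 2 most 3′ probes to the RefSeq mRNA.

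The 5′ Srsf10 probe and A_52_P250968 are the only pair of probes of 1 member gene in the scanner-signal fit. Of the pair, A_52_P250968 was not well above background in Cy5 on array 1, which limits the difference on that array. In the scanner-signal fit the pair differed by 0.67 (limma diffSplice adjusted p = 0.284), with 2.69% of 2786 probes called. With processed signals the difference was 2.39 and 2.48 on the 2 arrays, a mean of 2.43 (limma diffSplice adjusted p = 0.0323, with 4.85% of probes called). A test that gives each probe its own spread left that difference at an adjusted p of 0.113 by limma (interval 1.73 to 3.13). With no background correction it was 1.26 (limma diffSplice adjusted p = 0.00389, with 13.6% of probes called). The pair thus differed in 1 direction on both arrays under each of these settings. It passed the threshold by diffSplice with processed signals and with no background correction alone. It did not pass with an offset of 10 (limma diffSplice adjusted p = 0.323) or median centring (limma diffSplice adjusted p = 0.144). With no filter the 5′ probe against all other Srsf10 probes did not pass either (limma diffSplice adjusted p = 0.260).

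Position along the gene was also compared over all genes with several probes. Among 565 genes with deposited ratios at 2 or more positions, the most 5′ probe was higher than the most 3′ probe on both arrays for 34.3% and lower on both for 40.7%. The median difference was -0.04 on the log2 scale. Among 1260 genes with processed signals the shares were 33.0% and 40.2%, and in the scanner-signal fit they were 37.2% and 34.3%, with a median difference near 0 (0.0051).

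Among the members with several probes, Ptbp2 alone had processed ratios of 1 sign. Its 3 probes gave 6 processed ratios, all positive, from 1.20 to 3.41. A_52_P422088 (chromosome 3, 119730986 to 119731045, minus strand) is the one in the deposited table, with Cy5 signals of 60.9 and 62.0 and Cy3 signals of 753 and 456, the first of which lay below the negative control level of 804. Its processed Cy5 signals of 1262 and 1499 stood against 261 and 438 in Cy3. The deposited ratios were 2.27 and 1.78, a mean of 2.03 ± 0.35 (SD, n = 2; interval 1.61 to 2.44), or 4.07-fold higher (limma adjusted p = 7.22e-04), at percentile 99.3. It read 0.27 and 0.53 in the scanner-signal fit, a mean of 0.40 ± 0.19 (interval 0.12 to 0.68), and was not called (limma adjusted p = 0.141).

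The most 5′ Ptbp2 probe, A_52_P593110 (119752687 to 119753717, a span of 1031 bases), had the highest ratios, 2.56 and 3.41. Its Cy5 signals were 44.9 and 50.5, and its Cy3 value on array 1 was a surrogate. The most 3′ probe, A_51_P363818 (119711561 to 119711621), had ratios of 1.55 and 1.20 with Cy5 signals of 43.5 and 43.1, above the negative controls but not well above background. Since these probes were near background, their ratios were not compared with that of A_52_P422088. The scanner-signal means of the 3 probes without the filter were 0.24, 0.40 and 0.21 from 5′ to 3′, with 0 called at limma adjusted p of 0.334 to 0.716 (0.0583% of all probes were called higher without the filter).

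Ptbp2 is best known from neurons, so neuron markers are given beside it. Of 9 neuron genes on the array, among them Tubb3, Snap25, Stmn2 and Th, 0 were well above background in either channel on both arrays. Their summed processed signal was 661 and 336 in Cy5 and 556 and 424 in Cy3. Only 14.5% and 16.4% of gene spots passed that call in Cy5, so failing it does not show absence. Whether nerve tissue adds to the Ptbp2 signal was not tested.

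Ptbp3 was called higher in the deposited ratios, with nearly the same value in both mice, and was not called in the scanner-signal fit. Its 1 probe, A_51_P310040 (chromosome 4, 59569470 to 59569529, minus strand), had Cy5 signals of 74.5 and 88.6, well above background on both arrays, and Cy3 signals of 2007 and 1161. Processed signals were 1995 and 3066 in Cy5 and 823 and 1249 in Cy3. The deposited ratios were 1.28 and 1.30, a mean of 1.29 ± 0.01 (SD, n = 2; interval 0.93 to 1.64), or 2.44-fold higher (limma adjusted p = 0.00132). The scanner-signal ratios were 0.23 and 0.60, a mean of 0.42 ± 0.26 (interval 0.10 to 0.73), and the probe was not called (limma adjusted p = 0.162).

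Ptbp1 was not called different from the pool in either fit, at the probe measured in both channels. A_51_P462692 (chromosome 10, 79267289 to 79267347, plus strand) had Cy3 signals of 3278 and 1882 and Cy5 signals of 65.9 and 70.9, all well above background. Processed signals were 1463 and 1951 in Cy5 and 1422 and 2187 in Cy3. The deposited ratios of 0.04 and -0.16 gave a mean of -0.06 ± 0.15 (SD, n = 2; interval -0.43 to 0.31, limma adjusted p = 0.770). The scanner-signal mean was -0.11 ± 0.10 (interval -0.35 to 0.14, limma adjusted p = 0.596). The Ptbp3 interval lay above that of Ptbp1 in the deposited ratios (0.93 to 1.64) and overlapped it in the scanner-signal fit (0.10 to 0.73). The difference between Ptbp1 and Ptbp3 was not tested. The second Ptbp1 probe, A_52_P234619 (79265597 to 79265656), had Cy5 signals of 35.2 and 35.9, below the control level, and a surrogate in Cy5 on both arrays. On array 1 its Cy3 value was also a surrogate, with a listed ratio of 0. On array 2 its Cy3 signal was well above background, and the processed ratio of -1.11 is a bound.

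Aire was not detected above background in the hyperglycemic mice. A_51_P376127 (chromosome 10, 77433207 to 77433266, minus strand) had Cy5 signals of 38.9 and 39.3, just under the control levels of 39.1 and 39.6. Its Cy3 signals were 639 and 417, and only that of array 2 was well above background. The processed ratios were -1.55 and -2.32, the latter with a surrogate in Cy5, so no fold is given. No thymic epithelium gene of the 4 on the array, Foxn1, Krt5, Krt14 and Cldn4, was well above background in either channel on both arrays.

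**Figure D2:**
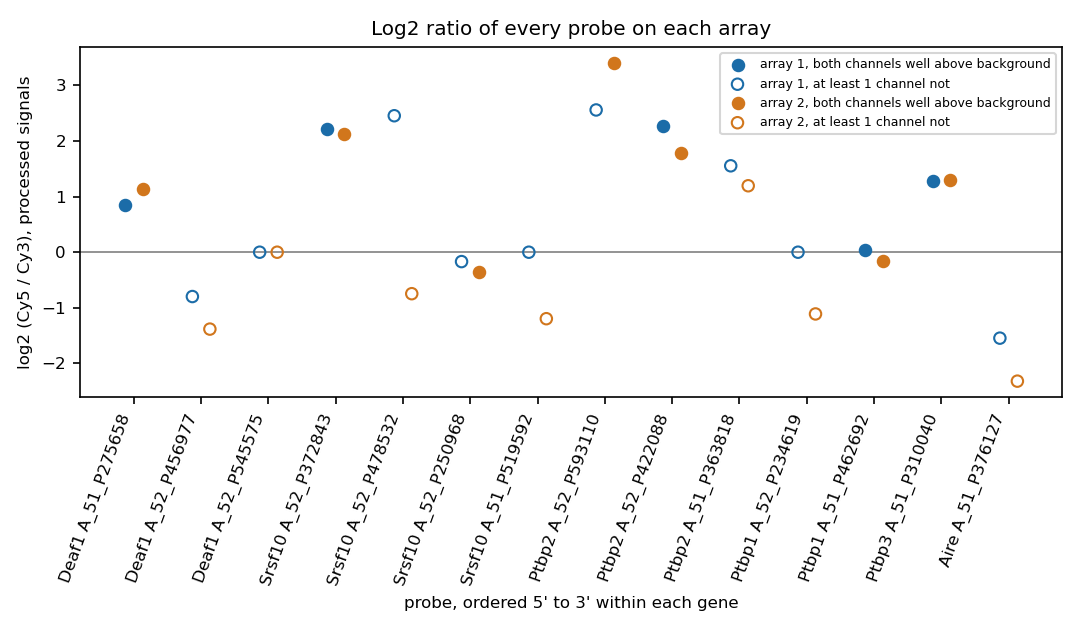
Log2 ratio of Cy5 over Cy3 from processed signals for each member probe on each array; filled points have both channels well above background and open points do not. All 3 Ptbp2 probes are above 0 on both arrays, from 1.20 to 3.41, whereas the Deaf1 and Srsf10 probes lie on both sides of 0, with the 5′ probe of each above 0 on both arrays.

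Over all members in the deposited table, 4 of 5 probes were called higher and 0 lower, against 25.1% and 18.4% of the 5072 probes. The median of the 5 ratios was 1.29, and that of all probes 0.06. A high share of that table passes an adjusted test, and 52.6% of its probes had an unadjusted p under 0.05. In the scanner-signal fit 0 of 6 member probes were called, against 4.73% called higher and 0.476% called lower of 8828 probes. There 4 of 6 had an unadjusted p under 0.05 by limma, against 19.4% of all probes. The median of the 6 was 0.38, and that of all probes -0.03.

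**Figure D3:**
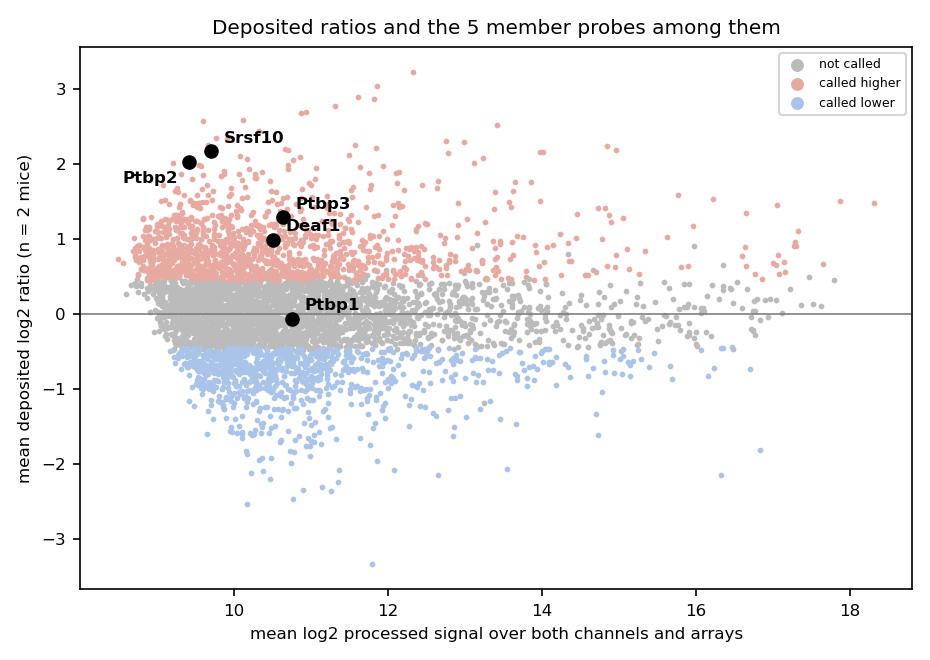
Mean deposited log2 ratio over both mice against the mean log2 processed signal for 5072 gene probes, coloured by call at limma adjusted p under 0.05, with the 5 member probes in black. Srsf10 (2.17) and Ptbp2 (2.03) lie near the top among dim probes, Ptbp3 (1.29) and Deaf1 (0.99) among the called probes at middle signal, and Ptbp1 (-0.06) on the line of no difference.

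The size of the ratios moved with the processing more than their order did. Srsf10 (5′ probe) and Ptbp2 stood above Ptbp3 and Deaf1, and Ptbp1 stood lowest among the 5, in the deposited ratios, with no background correction, and with an offset of 10. In the scanner-signal fit Ptbp2, Ptbp3 and Deaf1 lay between 0.36 and 0.42, within their spread. With no background correction the same 4 probes were called higher, Srsf10 at 1.14, Ptbp2 at 0.90, Ptbp3 at 0.73 and Deaf1 at 0.60 (limma adjusted p from 2.65e-04 to 0.0109), with 13.4% of all probes called higher. With an intensity trend in the variance the 4 probes were called at their scanner-signal values (limma adjusted p from 1.02e-08 to 0.0160), with 7.60% of all called higher. With processed signals 0 of all 8828 probes were called (0%), and the 4 probes had limma adjusted p from 0.0574 to 0.0736. Their ratios there were the same as in the deposited ratios, where all 4 were called among 5072 probes.

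Array 2 gave the larger scanner-signal ratio for each of these 4 probes. With median centring in place of loess, the median of all 8828 probes fell to -2.01, and each of the 6 tested member probes lay below 0 and was called lower, as were 97.7% of all probes. Relative to that median Srsf10 was at 1.01, Ptbp2 at 1.00, Ptbp3 at 0.05 and Deaf1 at 0.04. Against probes of the same signal decile under that setting, Srsf10 lay at percentile 99.8, Ptbp2 at 99.2, Ptbp3 at 95.9 and Deaf1 at 95.4. In the scanner-signal fit the same percentiles were 99.5, 99.0, 96.4 and 95.5.

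**Figure D4:**
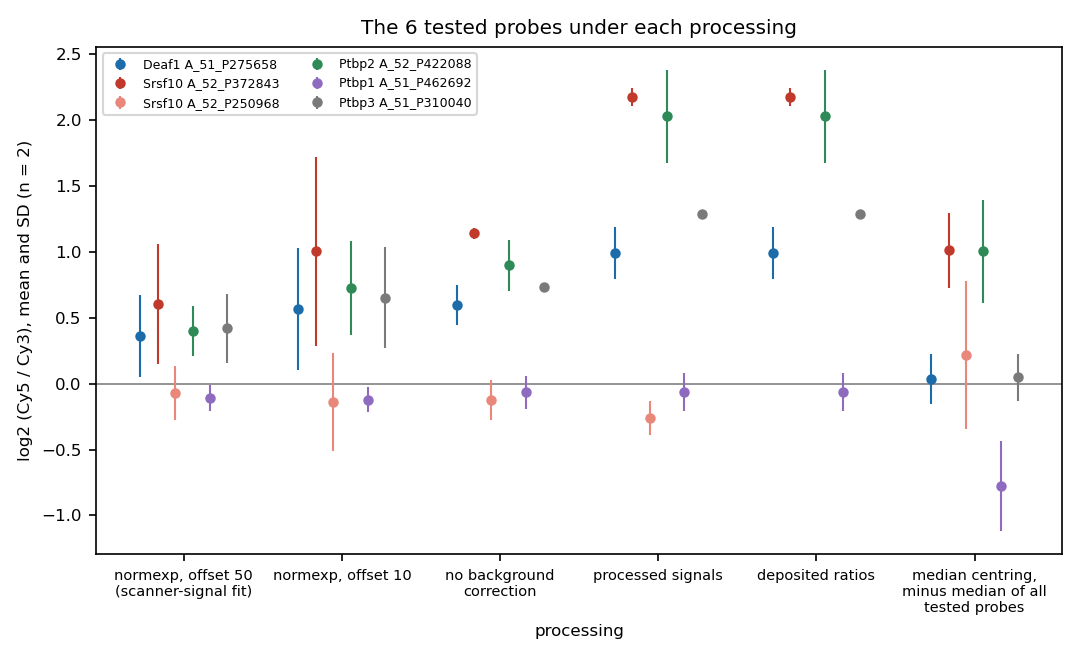
Mean log2 ratio of the 6 tested member probes under 6 ways of processing, with SD over both mice (n = 2); median centring is shown after subtraction of the median of all tested probes. The 5′ Srsf10 probe is the highest under each, and it and the Ptbp2 probe shift from 0.60 and 0.40 in the scanner-signal fit to 2.17 and 2.03 in the deposited ratios.

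Genes whose deposited ratios lay nearest to each member on both arrays were few for the high members. Distance here is the Euclidean distance between pairs of log2 ratios over 2 arrays, and a gene with several probes entered with its nearest one. For Ptbp2 the nearest were Myo1e (distance 0.020), Sparcl1 (0.074) and Gpsm1 (0.13), with 2 genes within 0.1. For the 5′ Srsf10 probe they were Map3k6 (0.088), Tfdp2 (0.22) and Bbc3 (0.22), with 1 gene within 0.1. For Deaf1 they were Fbxo33 (0.018), the spliceosome subunit gene Sf3b1 (0.023) and Klf2 (0.024), with 13 genes within 0.1. For Ptbp3 they were Rap1gap (0.034), Rit1 (0.048) and the entry named NAP055718-1 (0.057), with 18 genes within 0.1. Ptbp1, near 0, had 120 genes within 0.1, with Pcnp, Rbx1 and Cp nearest. Other probes of Sparcl1 and Klf2 had lower mean deposited ratios than the ones used, 0.65 and 0.50, so those genes were near at 1 probe and not at another.

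Few relatives and partners of Deaf1 were measured. Of 7 SAND domain genes 3 were in the deposited ratios, where 25.4% of 4413 genes were called higher and 18.2% lower. Sp100, a nuclear body protein, fell (-0.89 ± 0.36, limma adjusted p = 0.00748), and Ski, a corepressor, rose at the probe used (0.67 ± 0.25, limma adjusted p = 0.0163) and fell at another (-0.56 ± 0.09, limma adjusted p = 0.0239). Of 7 genes listed as Deaf1 partners or as regulated by it 3 were measured, with 0 called higher and 1 lower. That 1 is Eif4g3, a translation initiation factor that has been described as a Deaf1 target, at -0.46 ± 0.06 (limma adjusted p = 0.0445). Another Eif4g3 probe was at -0.70 ± 0.07 (limma adjusted p = 0.00999). Lmo4, a Deaf1 partner, read 0.31 ± 0.60, and Peli1 read 0.36 ± 0.27, and neither was called. Of both lists 0 genes were called in the scanner-signal fit by limma, where 5.15% and 0.464% of 7322 genes were called higher and lower.

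Genes of peripheral tissues, of the kind Deaf1 and Aire drive, were mostly under the detection limit. Of 19 on the array, among them Ins1, Ins2, Gad1, Ptprn and Gpa33, 0 were well above background in Cy5 on both arrays. In Cy3, which held the pool, 2 were well above background on both arrays. In the deposited ratios there were 0. The scanner-signal fit held 2 of them, with 0 called and a median of -0.13.

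Of 12 genes of SR proteins, the family nearest to Srsf10, 10 were in the deposited ratios. There 3 were called higher and 1 lower, 30% and 10%, near the shares of 25.4% and 18.2% over all genes, with a median of 0.27 against 0.07 for all genes. Srsf5 was highest (1.37 ± 0.06, limma adjusted p = 0.00110), followed by Tra2b (0.88 ± 0.03) and Srsf6 (0.72 ± 0.03). Srsf1, the founding SR protein, fell (-1.001 ± 0.14, limma adjusted p = 0.00309). Tra2b resembled Srsf10 in that a second probe of it had the opposite sign (-0.49 ± 0.10, limma adjusted p = 0.0387). The scanner-signal fit called 0 of 10, with Srsf5 at 0.36, and called 5.15% of all genes higher and 0.464% lower.

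Of 9 kinases and phosphatase subunits that act on SR proteins 6 were in the deposited ratios. There 2 were called higher and 1 lower, where 25.4% and 18.2% of all genes were. Clk4, a kinase of SR proteins, was called higher (0.75 ± 0.01, limma adjusted p = 0.00801), and so was the phosphatase subunit Ppp1cc (0.47 ± 0.20, limma adjusted p = 0.0484), whose second probe read -0.39. Ppp1ca, another catalytic subunit of protein phosphatase 1, the class of enzyme that dephosphorylates Srsf10, was called lower (-0.63 ± 0.06, limma adjusted p = 0.0147). In the scanner-signal fit 0 of 7 were called, where 5.15% of all genes were called higher and 0.464% lower.

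Of 10 regulators related to the PTB proteins by function 4 were in the deposited ratios. The count called, 1 higher and 0 lower, was near the shares of 25.4% and 18.2% over all genes. Khsrp, a KH domain protein of RNA decay and splicing, was called higher (1.75 ± 0.47, 3.36-fold, limma adjusted p = 0.00112), and the other 3 were not called, with a list median of -0.21. Khsrp was also the only gene of these 6 lists called in the scanner-signal fit (1.22, limma adjusted p = 0.00947), where 5.15% of all genes were called higher. Its value was thus above that of every member there. With median centring Khsrp read -2.18, below the median of all probes (-2.01) and below each tested member probe except that of Ptbp1 (-2.79).

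**Figure D5:**
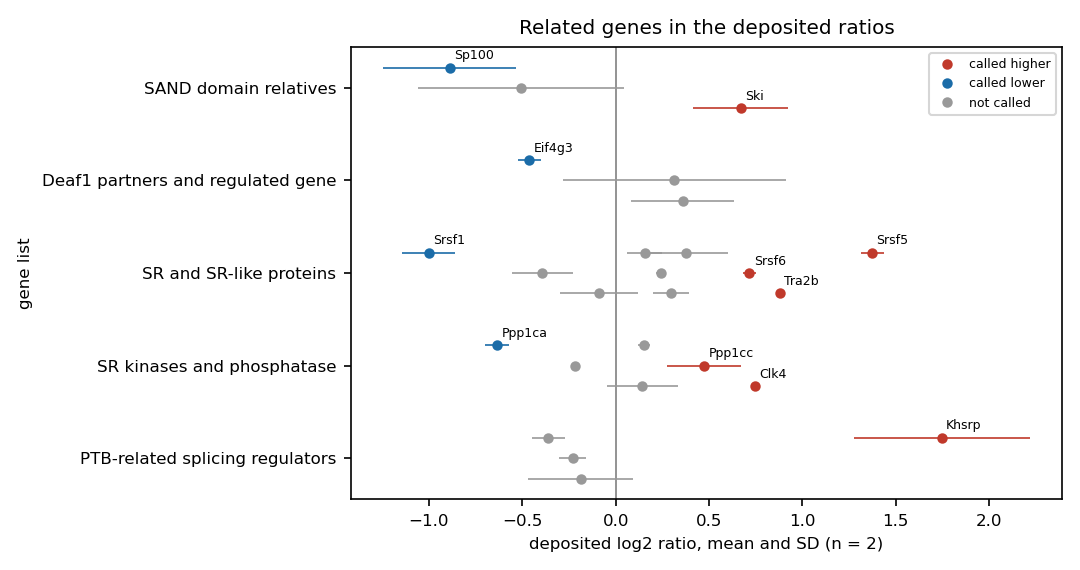
Mean deposited log2 ratio with SD over both mice (n = 2) of each measured gene in the 5 lists with deposited ratios, coloured by call at limma adjusted p under 0.05. Called genes lie on both sides of 0 in the lists of SAND relatives, SR proteins and their kinases, and Khsrp (1.75) and Srsf5 (1.37) are the highest.

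In whole nodes, fewer cells of a type and less RNA per cell cannot be told apart, so cell markers are given beside the members, from the deposited ratios, where 25.4% of all genes were called higher and 18.2% lower. All 6 measured T cell genes were called lower there, with a median of -1.39, and their summed processed signal was 9040 and 13259 in Cy5 against 21261 and 32560 in Cy3. Cd3e, Cd4, Cd8b1 and Cd2, defining T cell genes, were not well above background in Cy5 on both arrays. The scanner-signal fit called 1 of 8 lower and gave a median of -0.52. Of B cell genes 2 of 5 were called lower and 1 higher. Genes of the fibroblastic stroma, in which Deaf1 is known to act, were called higher for 3 of 7 and lower for 2, with a median of -0.30 in the deposited ratios and of 0.32 in the scanner-signal fit. Of endothelial genes 1 of 2 was called higher, and of dendritic cell and macrophage genes 1 of 3 was higher and 1 lower.

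Exocrine pancreas genes, which are not lymph node genes, were well above background in both channels for 16 of 16. Their summed processed signal was 2.03e+06 and 3.64e+06 in Cy5 and 1.58e+06 and 2.22e+06 in Cy3. In the deposited ratios 9 were called higher and 1 lower, with a median of 0.61. In the scanner-signal fit 16 of 16 were called higher, where 5.15% of all genes were, with a median of 4.84. The size of the difference thus hung on the processing. The part of these marker differences in the members' ratios was not tested.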

How the data were processed

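Amplified and dye-labelled cRNA from 1 ug of total RNA was hybridised for each sample, per the labels. The scanner files come from Agilent Feature Extraction 10.7.3.1, per the file headers, and give spot and background intensity, plus processed intensity that the software corrected for background and dye. The authors' deposited value table gives log2 ratios (Cy5 over Cy3) that match the log10 ratios deposited in the scanner files after multiplication by 3.32. It lists 5072 of the 5088 gene probes that passed the well-above-background call in both dyes on both arrays; how they were selected is not given in the sources used here.

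The scanner-signal fit used normexp (offset 50) and loess within arrays (span 0.3). It kept probes that passed that call in 1 dye or both on each array and left out 338 and 184 flagged gene spots. The fit of the deposited ratios was listed as an alternative to it. Both used limma 3.58.1 in R 4.3.3 (two-sided moderated test against 0, with 1 residual degree of freedom), and diffSplice set each probe against the others of its gene. The limma fits were also run on simulated data with known differences, whose spread was taken from these arrays. Probe positions are in build mm8 and promoters in GRCm38.p6. A gene of a list took its brightest probe. Of each list the 2 highest and 2 lowest called genes of the deposited ratios are named, and of each member in that table the 3 nearest genes. The members and lists were chosen with earlier results of these data known. The number of arrays limits the precision.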

Additional observations from a re-analysis of the deposited data

How the results depend on the processing

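The log2 ratios of the 6 tested member probes were recomputed under 8 alternatives where each could be fitted. Median centring reversed 4 of them: the 5′ Srsf10 probe to -0.997, Ptbp2 to -1.004, Ptbp3 to -1.96 and Deaf1 to -1.97. The median of all probes was -2.01 there, and relative to it these probes were at 1.01, 1.00, 0.05 and 0.04. Member probes called higher numbered 4 with the deposited ratios, with no background correction and with an intensity trend, against 0 in the scanner-signal fit. Of all probes, 25.1%, 13.4%, 7.6% and 4.73% were called higher under these settings, in that order. Median centring called 6 member probes lower, as it did 97.7% of all probes.

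Of all probes, 418 were called higher by limma in the scanner-signal fit, and 42 were called lower. The counts were 1274 and 931 in the deposited ratios, 0 and 0 with processed signals, 105 and 14 with an offset of 10, and 1184 and 923 with no background correction. They were 1 and 8628 with median centring, 84 and 0 with both channels required, 24 and 0 with no filter, and 671 and 514 with an intensity trend. Genes of the pathway lists called higher numbered 1, and 7 in the deposited ratios, 4 with no background correction, 2 with an intensity trend, and 0 with processed signals, median centring or no filter. Those called lower numbered 0, and 4, 6, 2 and 33 with the deposited ratios, no background correction, an intensity trend and median centring. Probes that differed from the others of their gene numbered 75, and 135 with processed signals, 8 with an offset of 10, 379 with no background correction, 791 with median centring, and 9 with both channels required. A test with each probe's own spread, chosen after the data were seen, called 152. The causes were not tested.

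Without replicate 1 or 2 the scanner-signal ratios are single values with no test: 0.28 to 0.92 for the 5′ Srsf10 probe, 0.27 to 0.53 for Ptbp2, 0.23 to 0.60 for Ptbp3, and 0.14 to 0.58 for Deaf1. Array 1, left alone, thus gave the lower value for each. No paired analysis was possible because 1 pool served as the control of both mice. A slide block was not run, since both arrays were on 1 slide. Signal over background limits 9 of the 14 member probes, none of which passed the well-above-background call in both dyes on both arrays.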
